A study of Zea mays with 12 samples.

Results

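The early response to abscisic acid (ABA) in normal maize seedling shoots was read by comparing 3 WT ABA libraries with 3 WT MS libraries across all genes. WT seedlings were homozygous for the functional Mop1 allele and were siblings of the homozygous mop1-1 mutants, from a selfed heterozygous plant of the B73 background. At the V3 stage, when the seedlings have 3 leaves, the roots of plants lifted from soil stood for 1 h in liquid Murashige and Skoog medium with 50 µM ABA (WT ABA) or without it (WT MS), and the shoots were taken for polyA RNA sequencing. The WT MS plants were therefore lifted, rinsed and bathed in the same way as the WT ABA plants, and plants left in soil were not part of the comparison. The mop1-1 ABA and mop1-1 MS groups, which lack a working RNA-dependent RNA polymerase of the RNA-directed DNA methylation pathway, also had 3 libraries each and entered here for the fit and for comparison. The members were all 38444 features of the table, the same in all 12 libraries, and the 26401 features with at least 0.58 CPM (counts scaled by library size and TMM) in at least 3 libraries were tested.

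ABA is the hormone that plants make when water runs short. It closes stomata and switches on genes of protection. PYR/PYL receptors that have bound ABA hold back the protein phosphatases of type 2C (PP2C), which frees SnRK2 kinases to activate bZIP transcription factors such as those of the ABF and ABI5 type. PP2C genes are themselves classic targets of the pathway, so that their transcripts usually rise with ABA and restrain it. Among the transcripts known to follow are those for late embryogenesis abundant proteins, homeodomain-leucine zipper factors and enzymes of osmolyte synthesis.

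The depth was 50920182 to 65574775 counts per library in WT ABA and 52400521 to 64025102 in WT MS. The spread between replicates was wider in WT MS, with a common biological coefficient of variation of 0.347, than in WT ABA, with 0.259. A feature lay more than 1 log2 unit from the mean of the other replicates of its group in 0.970% to 1.54% of cases per WT ABA library and in 2.88% to 4.39% of cases per WT MS library. Markers of shoot and root were read beside the label of the tissue, and the root markers did not all go the same way. All 10 photosynthesis genes with a name were detected in every WT library, and their summed level was 4337 to 5495 CPM in WT ABA and 4086 to 5736 CPM in WT MS. Among root markers, the Casparian strip gene ZmCASP1 and the nicotianamine synthase gene nas2 stayed below 0.25 CPM, while the iron-phytosiderophore transporter gene ys1 stood at 72.0 to 223 CPM in WT ABA and 53.4 to 115 CPM in WT MS.

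By the quasi-likelihood (QL) test of edgeR, no feature was called in WT. A call needs an adjusted p no higher than 0.05 and a log2 fold change (WT ABA over WT MS) beyond 0.95 or -0.95. The smallest adjusted p was 0.417 (edgeR QL test), and 1887 features (7.15%) had an unadjusted p under 0.05, of which 852 (3.23%) were higher and 1035 (3.92%) lower in WT ABA. DESeq2 called 68 features (0.258%), 18 higher (0.0682%) and 50 lower (0.189%), and the edgeR exact test called 42 (0.159%), 17 higher (0.0644%) and 25 lower (0.0947%). Limma-voom called 0, with 1894 features at an unadjusted p under 0.05. The calls of DESeq2 and the exact test shared 16 higher and 25 lower features. Of the 19 higher and 50 lower features that either called, 8 and 17 were assembled loci, which carry a StringTie identifier and no gene name. Over all features tested the median log2 fold change was -0.01, a value that the TMM scaling holds near 0, and the libraries of the groups did not overlap for 1580 features higher (5.98%) and 1560 lower (5.91%) in WT ABA.

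**Figure D1:**
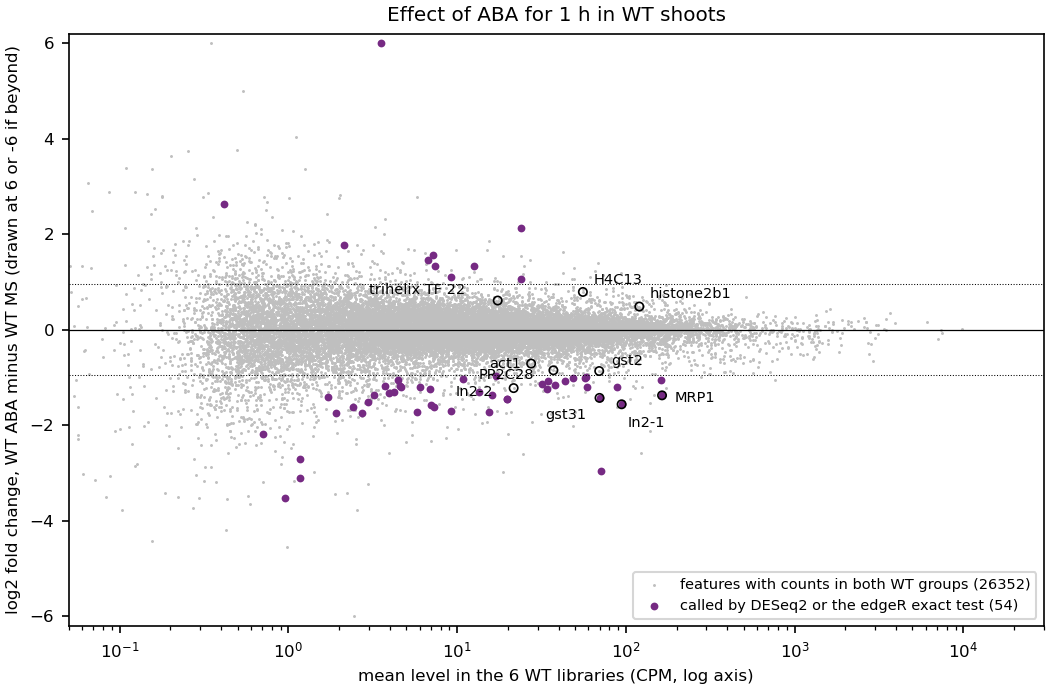
Log2 fold change of WT ABA over WT MS (edgeR QL fit, values beyond 6 or -6 drawn at the edge) against the mean level in the 6 WT libraries in CPM on a log axis, with 1 grey point per feature that had counts in both WT groups. Purple points were called by DESeq2 or the edgeR exact test, dotted lines mark a log2 fold change of 0.95 in either direction, and open circles mark 10 named genes, with MRP1, In2-1 and gst31 below the lower line at -1.37, -1.56 and -1.43.

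The genes with a name that DESeq2 and the exact test called in WT were MRP1, gst31 and In2-1, all lower with ABA. MRP1 and gst31 belong to the list of glutathione transferases and conjugate transporters, and In2-1 to none of the lists. Glutathione transferases join glutathione to reactive or foreign molecules, MRP-type transporters move such conjugates into the vacuole, and the In2 genes of maize are known for their induction by herbicide safeners. MRP1 (Zm00001d046226) stood at 65.7, 96.7 and 112 CPM in WT ABA replicates 1 to 3, against 202, 205 and 302 CPM in WT MS. Each WT ABA library was therefore below each WT MS library, and the log2 fold change was -1.37 with a standard error (SE) of 0.29 (unadjusted p = 4.3e-04, edgeR QL test). The adjusted p of MRP1 was 8.8e-04 by DESeq2, 0.0074 by the edgeR exact test and 0.437 by the edgeR QL test. In bulk shoots, fewer cells of a type and less RNA per cell cannot be told apart, here and in the differences that follow.

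In2-1 (Zm00001d028693) stood at 32.9, 56.5 and 54.3 CPM in WT ABA and 98.5, 88.1 and 237 CPM in WT MS. Its log2 fold change was -1.56 (SE 0.37), with an adjusted p of 0.0050 by DESeq2 and 0.034 by the edgeR exact test. For gst31 (Zm00001d027557) the levels were 31.3, 44.8 and 37.6 CPM in WT ABA and 72.9, 65.3 and 167 CPM in WT MS, a log2 fold change of -1.43 (SE 0.35), with an adjusted p of 0.010 by DESeq2 and 0.047 by the edgeR exact test. In both genes the groups did not overlap, and WT MS replicate 3 was more than 2 times any other WT library. Without that library the log2 fold change was -0.96 for In2-1 and -0.87 for gst31, and neither was called any longer by DESeq2 (adjusted p = 0.068 and 0.10) or by the exact test of edgeR (adjusted p = 0.15 and 0.19). DESeq2 also made no call without WT ABA replicate 1 for either gene (adjusted p = 0.12 and 0.14) and without WT ABA replicate 3 for gst31 (adjusted p = 0.062), and the exact test called either gene only where WT MS replicate 1 or 2 was left out. The call of MRP1 by DESeq2 held without each WT library in turn (adjusted p = 7.6e-04 to 0.035, DESeq2), while that by the edgeR exact test ended without WT ABA replicate 1 (adjusted p = 0.21) or 2 (adjusted p = 0.11).

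The other tested genes of conjugation stood on the same side to different degrees. For gst2 (Zm00001d024839), a paralog that may share reads with gst31, the levels were 42.9, 47.1 and 58.2 CPM in WT ABA and 109, 70.6 and 90.2 CPM in WT MS. Its log2 fold change of -0.86 (SE 0.20) was under the threshold for a call, with an adjusted p of 0.015 by DESeq2 and 0.047 by the edgeR exact test. DESeq2 called it without WT ABA replicate 3 (log2 fold change -1.0, adjusted p = 0.0079) or WT MS replicate 2 (log2 fold change -1.02, adjusted p = 0.0013).

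In2-2 (Zm00001d031666), the second safener-induced gene, stood at 10.6, 13.3 and 15.1 CPM in WT ABA and 18.2, 28 and 44.6 CPM in WT MS, a log2 fold change of -1.22 (SE 0.43) that did not pass (adjusted p = 0.186, DESeq2) but was called without WT MS replicate 1 (-1.48, adjusted p = 0.038, DESeq2), and stood at -0.83 without WT MS replicate 3. Of the 7 glutathione transferase and conjugate transporter genes tested, all had a negative log2 fold change in WT, with a median of -0.71 and a range of -1.43 to -0.05. Of these, 3 had an unadjusted p under 0.05 (edgeR QL test), while gst7, gst42, gst19 and gst12 did not. Over all features 3.92% were lower at such a p. In mop1-1 the same 7 genes had a median of 0.37 for ABA against MS, with 5 above 0. Zm00001d046225, a gene without a name whose identifier directly precedes that of MRP1, was chosen after its values were seen. It stood at 3.36, 1.47 and 5.94 CPM in WT ABA and 9.12, 9.13 and 14.6 CPM in WT MS (adjusted p = 0.030, DESeq2), with no call without WT ABA replicate 1 or 2 or WT MS replicate 3, and whether reads of the neighbours were told apart was not checked.

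**Figure D2:**
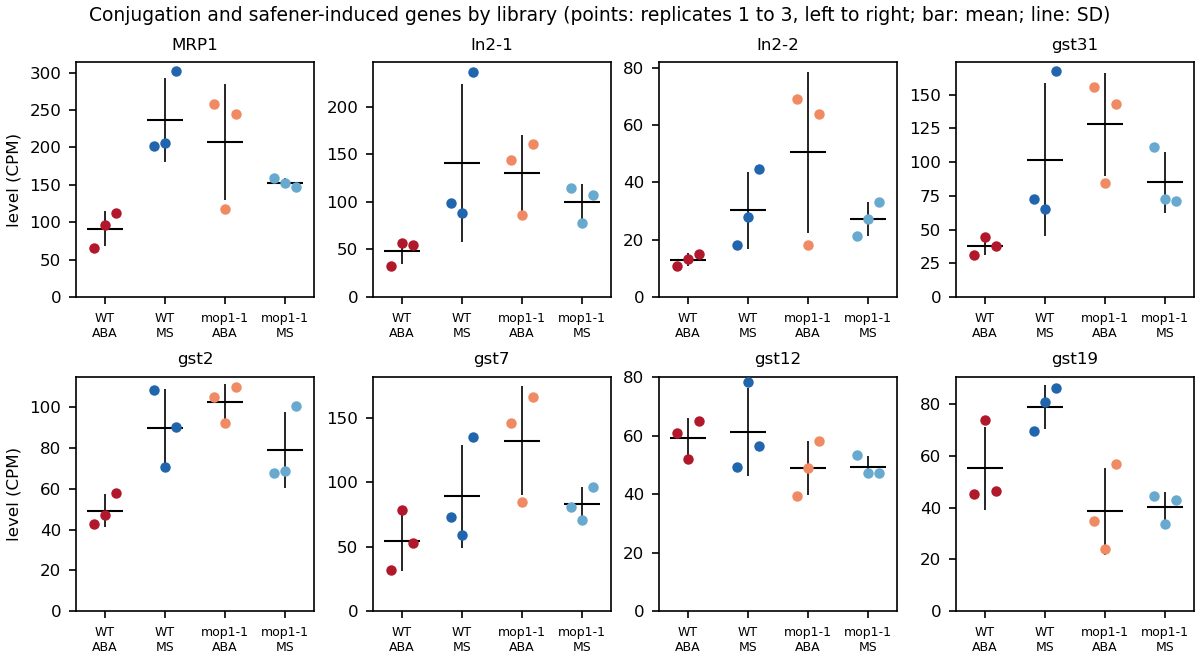
Level in CPM of 8 conjugation and safener-induced genes in each library of the 4 groups, with replicates 1 to 3 from left to right, a bar at the mean and a line over 1 SD. The 3 WT ABA points of MRP1, In2-1, In2-2, gst31 and gst2 lie below all WT MS points, and the mop1-1 ABA means of these genes lie above their mop1-1 MS means.

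In mop1-1 seedlings MRP1, gst31, gst2, In2-1 and In2-2 had positive log2 fold changes for ABA against MS. MRP1 was at 258, 118 and 245 CPM in mop1-1 ABA and 159, 153 and 146 CPM in mop1-1 MS, where the log2 fold change was 0.44 (SE 0.28). For gst31 it was 0.59 (SE 0.35), for gst2 0.37 (SE 0.19), for In2-1 0.38 (SE 0.37) and for In2-2 0.90 (SE 0.43). The difference between the genotypes in the effect of ABA, as WT minus mop1-1, was -1.80 for MRP1 (adjusted p = 0.0093), -2.01 for gst31 (adjusted p = 0.021) and -1.23 for gst2 (adjusted p = 0.030), all by DESeq2. The difference did not pass for In2-1 (-1.94, adjusted p = 0.066, DESeq2) or In2-2 (-2.11, adjusted p = 0.11, DESeq2). The QL test called 0 features for that difference, where 1120 (4.24%) had an unadjusted p below 0.05 and the smallest adjusted p was 0.276 (edgeR QL test), and DESeq2 called 27 (0.102%), a count that was 11 once WT ABA replicate 2 was left out and 144 once WT MS replicate 1 was. For ABA against MS within mop1-1 the QL test called 0 features as well, with 1011 (3.83%) at an unadjusted p below 0.05, and DESeq2 called 13 (0.0492%). The difference holds the WT values from which MRP1 and gst31 were called, so it is not a separate observation of them.

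Genes of ABA signalling itself were read next. Protein phosphatases 2C A5, A9, 26 and 32, Homeobox TF 41, bZIP TF 4 and C2C2 CO-like TF 19 are in the study's regulatory network. The study chose them in part on these WT ABA libraries, so their direction here is not independent evidence. The study lists each of them as higher in mop1-1 ABA than in WT ABA. In the list of 6 PP2C genes, 5 stood higher on average in WT ABA than in WT MS. At an unadjusted p under 0.05 (edgeR QL test), 1 was higher and 1 lower, beside 3.23% and 3.92% of all features. None was called by any of the tests run on all libraries. Protein phosphatase 2C A5 (Zm00001d005609) stood at 33.2, 27.2 and 26 CPM in WT ABA and 28.3, 8.42 and 10.6 CPM in WT MS. WT MS replicate 1 was thus within the range of WT ABA, and each WT ABA library was more than 2 times above the other WT MS libraries. The homeobox gene Homeobox TF 41 (Zm00001d017422) had the same order, with 88.9, 61.2 and 60.8 CPM in WT ABA and 66.1, 12.2 and 8.01 CPM in WT MS. In bZIP TF 4 (Zm00001d018178), a member of the family of factors that act in ABA signalling, WT MS replicate 1 was above all WT ABA libraries and the other WT MS libraries were below them, with 114, 81.6 and 92.8 CPM in WT ABA and 120, 26.6 and 25.1 CPM in WT MS. C2C2 CO-like TF 19 (Zm00001d024200), of the CONSTANS-like zinc finger family, stood at 34.1, 39.2 and 27.8 CPM in WT ABA and 31.4, 17.2 and 10.2 CPM in WT MS.

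With WT MS replicate 1 included, none of these 4 genes was called, at log2 fold changes of 0.87 (SE 0.46) for protein phosphatase 2C A5, 1.29 (SE 0.66) for Homeobox TF 41, 0.74 (SE 0.58) for bZIP TF 4 and 0.78 (SE 0.34) for C2C2 CO-like TF 19. Without that library, DESeq2 called all 4 as higher in WT ABA. The log2 fold change was then 2.8 for Homeobox TF 41 (adjusted p = 4.1e-08), 1.89 for bZIP TF 4 (adjusted p = 1.0e-03), 1.6 for protein phosphatase 2C A5 (adjusted p = 0.0072) and 1.30 for C2C2 CO-like TF 19 (adjusted p = 0.0028), and the edgeR exact test called the same 4 (adjusted p = 1.0e-04 to 0.037). By the edgeR QL test none of the 4 passed without it (adjusted p = 0.26 to 0.31). The 4 genes were grouped with the level of that library in view. Their calls without it therefore show its weight and are not separate support. In mop1-1, Homeobox TF 41 was low in both groups, with 15.8, 7.09 and 7.54 CPM in mop1-1 ABA and 6.99, 20.1 and 14.6 CPM in mop1-1 MS. Each mop1-1 ABA library was thus below each WT ABA library, opposite to the direction that the study lists. The reason was not tested.

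The position of WT MS replicate 1 was not limited to these genes. Leaving it out raised the calls in WT to 239 by DESeq2, 154 higher and 85 lower, and to 135 by the edgeR exact test, 79 higher and 56 lower. Each of these fits tested 26314 features. For 88 features the 3 WT ABA libraries and WT MS replicate 1 were all more than 2 times above both other WT MS libraries, with WT MS replicate 1 at or above the lowest WT ABA library. The same pattern was found for 40 features with WT MS replicate 2 and 36 with WT MS replicate 3 as the exception, and all 3 WT ABA libraries were more than 2 times above all 3 WT MS libraries for 16 features. In the other direction, 33 features were low in WT ABA and in WT MS replicate 1, against 28 and 16 with the other WT MS libraries as the exception and 26 in which all libraries were apart. The labels give no reason to set WT MS replicate 1 aside, and it was kept except where a value is given as without it.

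PP2C28 (Zm00001d014291) was the phosphatase gene on the other side, with 22.9, 30.7 and 26.3 CPM in WT ABA and 33.2, 40.6 and 69.8 CPM in WT MS. Its groups did not overlap and the log2 fold change was -0.85 (SE 0.26, unadjusted p = 0.0063, adjusted p = 0.531, edgeR QL test). Without WT MS replicate 1 it was -1.05, and DESeq2 called PP2C28 (adjusted p = 0.012), and without WT MS replicate 3, the highest library, it was -0.47. Protein phosphatase 2C 32 (Zm00001d047732) stood at 8.25, 9.42 and 7.03 CPM in WT ABA and 4.53, 6.36 and 6.2 CPM in WT MS, a log2 fold change of 0.53 (SE 0.24, unadjusted p = 0.049, edgeR QL test). In mop1-1 the values of both genes were close to 0, with log2 fold changes of 0.18 (SE 0.25) and 0.02 (SE 0.24).

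Receptors and the kinase of the pathway were read as 1 list. None of the 5 tested genes of the list of PYL receptors, SnRK2.8 and ABI3-VP1 TF 28 had an unadjusted p under 0.05. The receptor gene PYL3 (Zm00001d016294) stood at 2.79, 3.98 and 3.97 CPM in WT ABA and 5.29, 4.94 and 4.86 CPM in WT MS, so that the groups did not overlap (log2 fold change -0.49 with a standard error of 0.24, adjusted p = 0.717, edgeR QL test). The receptor gene PYL5 (Zm00001d047705) had the log2 fold change farthest from 0 in the list, -1.20 (SE 0.95), at low levels of 0.164, 1.03 and 0.764 CPM in WT ABA and 0.261, 3.02 and 1.20 CPM in WT MS, and it was -0.18 without WT MS replicate 2. All 5 genes of the list had a negative log2 fold change. SnRK2.8 (Zm00001d034161) was the most even of the list, with 43.9, 41.5 and 38.8 CPM in WT ABA and 42.8, 42.6 and 41.7 CPM in WT MS. Genes that protect cells from drying are usual targets of ABA, and the list had 2 tested members. The dehydrin gene dhn2 (Zm00001d051420) stood at 473, 521 and 374 CPM in WT ABA and 636, 308 and 729 CPM in WT MS, with the WT ABA values inside the WT MS range. OBAP2B (Zm00001d011755), related to oil body-associated proteins, was at 1.83, 1.23 and 1.28 CPM in WT ABA and 1.15, 0.145 and 0.571 CPM in WT MS, a log2 fold change of 1.22 with an unadjusted p of 0.079 (edgeR QL test). The gene p5cr (Zm00001d042117), for the last enzyme of proline synthesis, had 67.4, 71.8 and 62.1 CPM in WT ABA and 59.8, 50.0 and 57.1 CPM in WT MS, a log2 fold change of 0.27 (SE 0.12, unadjusted p = 0.041, adjusted p = 0.687, edgeR QL test).

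Among transcription factors, trihelix TF 22 (Zm00001d014938) had the smallest unadjusted p of the named genes with a positive log2 fold change. It stood at 21.7, 20.0 and 21.5 CPM in WT ABA and 11.1, 16.7 and 13.5 CPM in WT MS, and no library of the other 3 groups reached the WT ABA level. The log2 fold change was 0.61 (SE 0.15, unadjusted p = 0.0014), with an adjusted p of 0.057 by DESeq2, 0.17 by the edgeR exact test and 0.502 by the edgeR QL test. In mop1-1 it was 0.12 (SE 0.15), and the interaction had an unadjusted p of 0.036 (edgeR QL test). The WRKY factors, best known from responses to pathogens and stress, went both ways. Of the 8 tested, 2 were higher and 2 lower at an unadjusted p under 0.05, and in these 4 the groups did not overlap, beside 3.23% and 3.92% of all features at such a p and 5.98% and 5.91% with groups that did not overlap. WRKY TF 94 (Zm00001d050195) stood at 7.50, 8.52 and 8.25 CPM in WT ABA and 5.29, 4.79 and 3.93 CPM in WT MS, a log2 fold change of 0.79 (SE 0.29), and WRKY3 (Zm00001d030969) had one of 0.70 (SE 0.24). WRKY30 (Zm00001d034073) stood at 3.05, 4.54 and 4.73 CPM in WT ABA and 6.18, 5.40 and 9.50 CPM in WT MS, a log2 fold change of -0.78 (SE 0.26). None of these WRKY genes was called by any of the tests run on all libraries. Trihelix TF 22 and WRKY TF 94 are also in the study's regulatory network, chosen in part on these libraries, so their direction is not independent evidence. The study lists both as higher in mop1-1 ABA than in WT ABA. Here the WT ABA libraries of both genes were above every mop1-1 library, and the reason was not tested.

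Other families of factors held no member with an unadjusted p under 0.05 in WT among 8 AP2/ERF and DREB, 4 NAC, 5 MYB and MYB-related, 4 bHLH and 4 bZIP factors. The median log2 fold change was 0.43 for AP2/ERF and DREB, 0.22 for NAC, 0.07 for MYB, 0.56 for bHLH and 0.19 for bZIP factors, and that of AP2/ERF and DREB was 0.00 without WT MS replicate 3. Without WT ABA replicate 2 the median was -0.13 for NAC and -0.03 for MYB factors, and that of NAC factors was -0.25 without a filter on low counts. Of the 3 homeobox factors tested, HB128 was lower (log2 fold change -0.56, SE 0.25, unadjusted p = 0.047, edgeR QL test). The GLK family of MYB-like factors had 2 genes with an unadjusted p under 0.05 (edgeR QL test), both with a negative log2 fold change. Over all features 3.92% were lower at such a p. GLK52 (Zm00001d026542) had 4.58, 4.39 and 3.34 CPM in WT ABA and 4.55, 11.1 and 8.27 CPM in WT MS, a log2 fold change of -0.96 (SE 0.32), and GLK44 had one of -0.43 (SE 0.16). Without WT MS replicate 1, which was at the WT ABA level, DESeq2 called GLK52 (-1.24, adjusted p = 0.016), and without WT MS replicate 2 its log2 fold change was -0.64. The regulators and phosphatases that the study placed in its ABA regulatory network were chosen in part on these libraries, so their direction is not independent evidence. The study lists most of them as higher in mop1-1 ABA than in WT ABA. Of the 23 network genes tested, 16 were positive in WT, with a median of 0.53, and 7 in mop1-1, with a median of -0.27. In WT 4 were higher and none lower at an unadjusted p under 0.05 (edgeR QL test), beside 3.23% and 3.92% of all features.

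**Figure D3:**
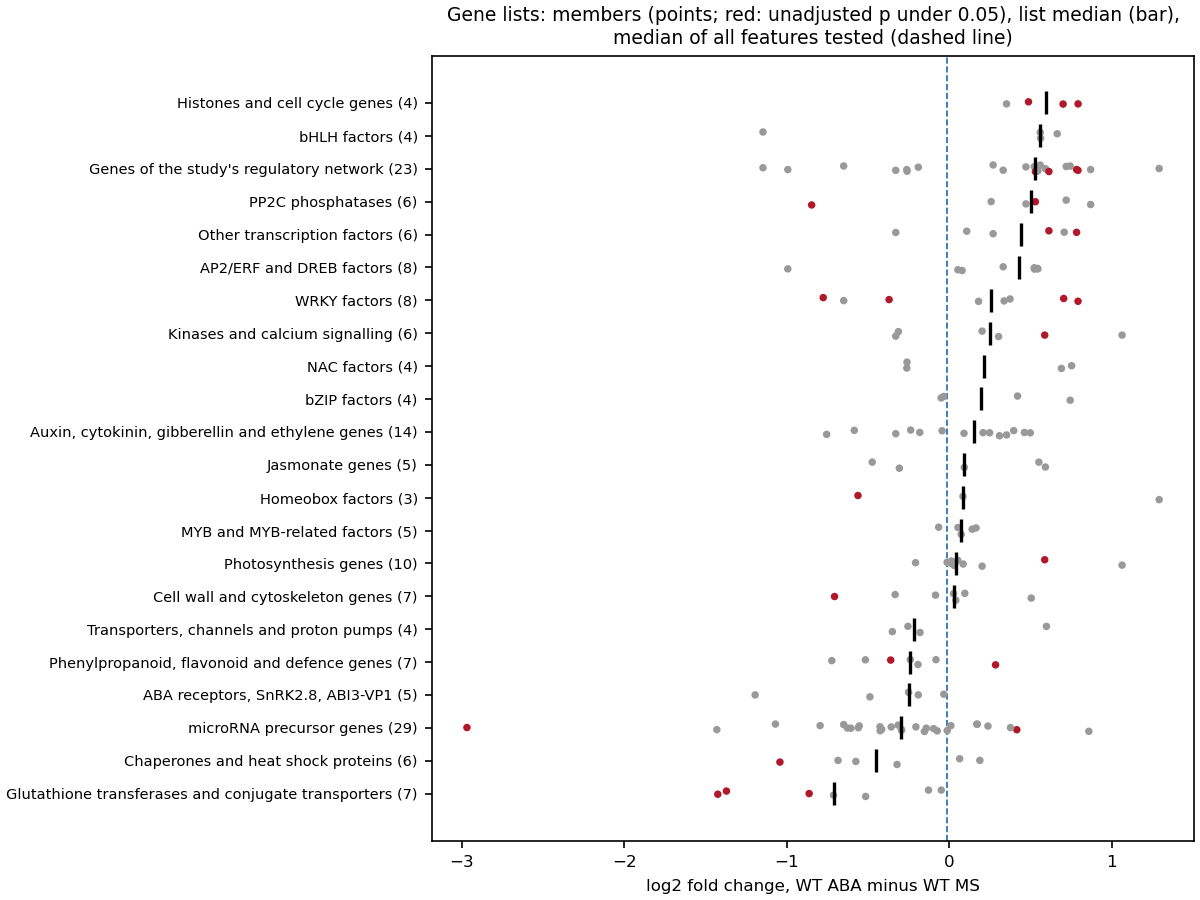
Log2 fold change of WT ABA over WT MS (edgeR QL fit) for each tested member of the gene lists with at least 3 tested members, with the list's median as a bar, the median of all 26401 features as a dashed line and members with an unadjusted p under 0.05 in red. Histones have the highest median, 0.59, and glutathione transferases with MRP1 the lowest, -0.71.

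Histone genes, whose transcripts are made when DNA is copied, were all on the higher side in WT ABA. Of the 4 tested, 3 were higher at an unadjusted p under 0.05 with groups that did not overlap (3.23% and 5.98% of all features), and the median log2 fold change was 0.59 in WT and -0.01 in mop1-1. The histone H4 gene H4C13 (Zm00001d026015) stood at 82.5, 68.0 and 61.2 CPM in WT ABA and 43.3, 53.0 and 25.9 CPM in WT MS (log2 fold change 0.79, SE 0.30). For the H2B genes histone2b1 (Zm00001d020580) the levels were 149, 152 and 120 CPM in WT ABA and 111, 104 and 85.4 CPM in WT MS (log2 fold change 0.49, SE 0.17), and for his2b5 (Zm00001d051591) 145, 111 and 130 CPM in WT ABA and 77.6, 107 and 53.1 CPM in WT MS (log2 fold change 0.70, SE 0.27). In each of the 3 genes the WT ABA libraries were above every library of the other 3 groups. None was called, with adjusted p of 0.32 to 0.36 by DESeq2, but without WT MS replicate 2 his2b5 was (log2 fold change 0.97, adjusted p = 0.046, DESeq2), and without WT MS replicate 3 its log2 fold change was 0.48. The linker histone gene his1 had 322, 304 and 270 CPM in WT ABA and 267, 272 and 163 CPM in WT MS (unadjusted p = 0.154, edgeR QL test).

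Among metabolic and structural genes, the sucrose phosphate synthase gene sps1 (Zm00001d012036) stood at 71.6, 60.9 and 51.0 CPM in WT ABA and 43.4, 41.7 and 28.7 CPM in WT MS, a log2 fold change of 0.69 (SE 0.29, unadjusted p = 0.033, edgeR QL test). PAL1 (Zm00001d017274), for phenylalanine ammonia-lyase at the entry to phenylpropanoids, had 884, 861 and 784 CPM in WT ABA and 717, 688 and 670 CPM in WT MS, a log2 fold change of 0.29 (SE 0.13). The actin gene act1 (Zm00001d010159) stood at 22.7, 21.8 and 18.2 CPM in WT ABA and 32.3, 25.7 and 44.2 CPM in WT MS, a log2 fold change of -0.71 (SE 0.20, unadjusted p = 0.0043, edgeR QL test). In sps1, PAL1 and act1 the groups did not overlap, and none was called. The gene cts1 (Zm00001d015856), with 78.8, 87.3 and 84.9 CPM in WT ABA and 113, 108 and 108 CPM in WT MS, had little spread within the groups and a log2 fold change of -0.39 (SE 0.13). The wound-induced gene wip1 (Zm00001d008548), of a family of protease inhibitors, stood at 2.61, 5.0 and 2.73 CPM in WT ABA and 11.5, 3.68 and 13.6 CPM in WT MS, with WT MS replicate 2 inside the WT ABA range and a log2 fold change of -1.47 (SE 0.51). Without that library DESeq2 called wip1, at a log2 fold change of -1.87 (adjusted p = 0.0090).

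The chaperone of the endoplasmic reticulum bip1 (Zm00001d014993) stood at 588, 535 and 377 CPM in WT ABA and 1773, 839 and 477 CPM in WT MS. Its groups overlapped, since WT MS replicate 3 was below 2 WT ABA libraries. Without WT MS replicate 3 the log2 fold change of -1.04 became -1.39, which DESeq2 called (adjusted p = 9.7e-04), and without WT MS replicate 1, the highest library, it was -0.40. The small heat shock gene hsp22 (Zm00001d052194) had the same order within WT MS, with 1134, 1024 and 985 CPM in WT ABA and 2640, 1513 and 529 CPM in WT MS. For the 6 chaperone genes tested, the median log2 fold change was -0.45 with all libraries and -0.05 without WT MS replicate 1. The 10 photosynthesis genes had a median of 0.04, with 1, the PEP carboxylase kinase gene PPCK2, higher at an unadjusted p under 0.05 (3.23% of all features, edgeR QL test).

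**Figure D4:**
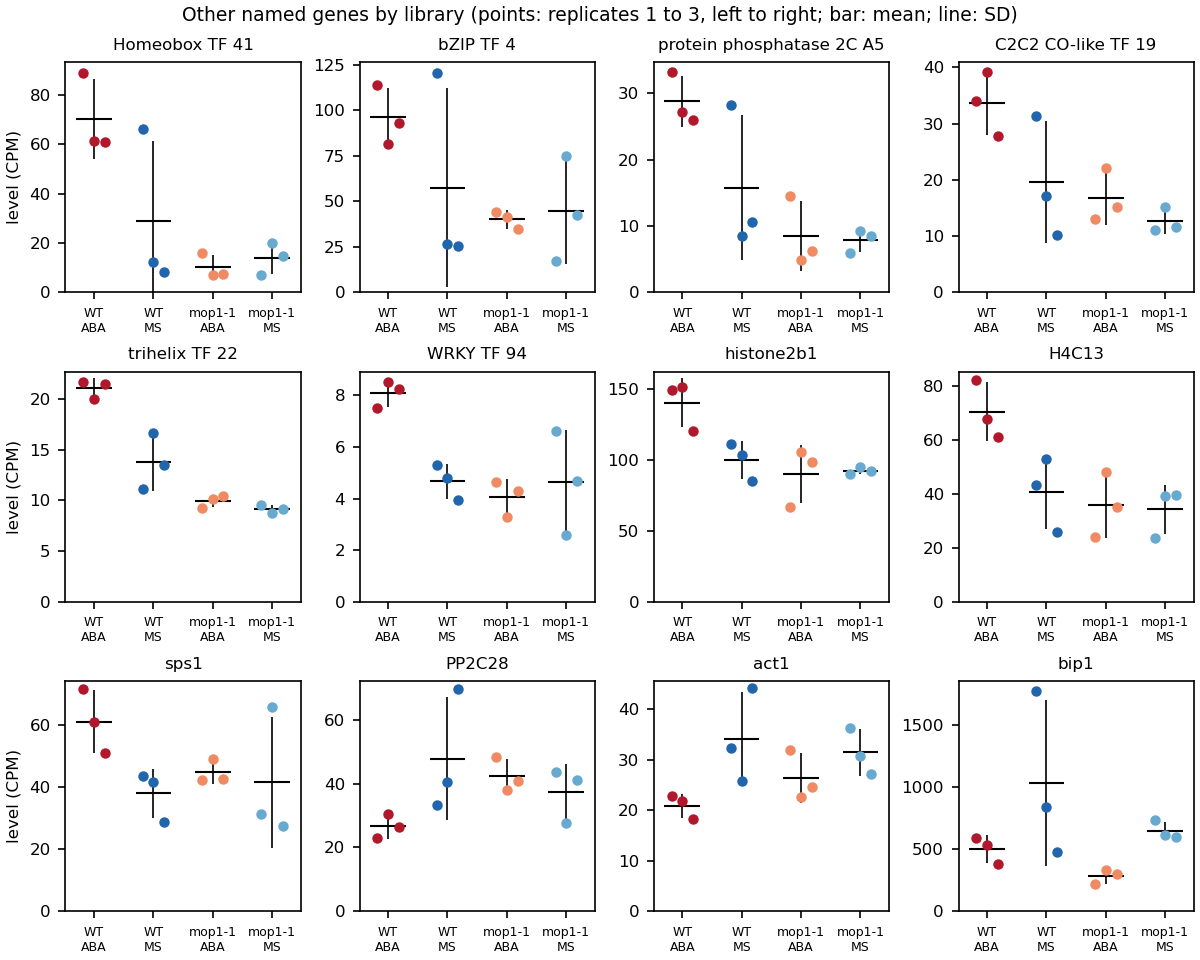
Level in CPM of 12 other named genes in each library of the 4 groups, with replicates 1 to 3 from left to right, a bar at the mean and a line over 1 SD. WT MS replicate 1 is at the WT ABA level for Homeobox TF 41, bZIP TF 4 and protein phosphatase 2C A5, and the 3 WT ABA points of trihelix TF 22, WRKY TF 94, histone2b1 and H4C13 lie above all other points.

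Precursors of microRNAs were sparse in polyA RNA, and 29 of 104 passed the filter on low values. Of these, 22 had a negative log2 fold change in WT, with a median of -0.29 beside -0.01 for all features. At an unadjusted p under 0.05 (edgeR QL test), 1 was higher and 1 lower, beside 3.23% and 3.92% of all features. The precursor zma-MIR159a, whose miRNA targets MYB factors of the GAMYB type, stood at 17.1, 12.7 and 18.4 CPM in WT ABA and 11.4, 13.6 and 11.1 CPM in WT MS (log2 fold change 0.42, SE 0.19). The precursor zma-MIR166d was the lower one, at 0.347, 0.443 and 0.172 CPM in WT ABA and 0.261, 3.13 and 4.20 CPM in WT MS, so that WT MS replicate 1 was as low as WT ABA. Neither was called by any of the tests.

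The features with the smallest p in WT carried no gene name. Zm00001d006417 stood at 9.93, 9.63 and 10.3 CPM in WT ABA and 4.46, 3.36 and 2.95 CPM in WT MS, a log2 fold change of 1.47 (SE 0.25) that DESeq2 called (adjusted p = 1.2e-04). The level in mop1-1 was near that of WT MS in both groups, at 3.27, 5.22 and 2.83 CPM in mop1-1 ABA and 3.90, 4.87 and 4.18 CPM in mop1-1 MS. Zm00001d030303 had 99.3, 90.2 and 103 CPM in WT ABA and 61.0, 72.7 and 60.9 CPM in WT MS, a log2 fold change of 0.59 with a standard error of 0.11, which is under the threshold for a call. Zm00001d043525 stood at 34.4, 36.2 and 26.2 CPM in WT ABA and 16.9, 15.2 and 14.2 CPM in WT MS (log2 fold change 1.06, adjusted p = 0.0016, DESeq2), a call that ended without WT ABA replicate 2 (adjusted p = 0.055). In mop1-1 the order was turned, at 18.8, 11.1 and 19.2 CPM in mop1-1 ABA and 30.0, 24.5 and 25.4 CPM in mop1-1 MS. Among the lower features, Zm00001d037943 stood at 2.78, 3.23 and 2.02 CPM in WT ABA and 8.73, 10.3 and 7.61 CPM in WT MS, a log2 fold change of -1.73 (SE 0.30) that DESeq2 called (adjusted p = 2.1e-04). The assembled locus MSTRG.14443 had 2.19, 3.70 and 4.68 CPM in WT ABA and 8.69, 10.7 and 12.1 CPM in WT MS (log2 fold change -1.58, adjusted p = 7.4e-05, DESeq2). Zm00001d024486, chosen after its values were seen, stood at 16.3, 18.5 and 14.4 CPM in WT ABA and 71.6, 74.9 and 234 CPM in WT MS (log2 fold change -2.95, adjusted p = 0.038, DESeq2), and kept its call only without WT MS replicate 1 or 2.

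Some of the called features were at 0 counts in a whole WT group. Of the features tested, 26 had no count in WT MS and some in WT ABA, in all 3 WT ABA libraries for 4 of them, and 23 had no count in WT ABA and some in WT MS, in all 3 WT MS libraries for 4. The features of this kind described here were chosen after their values were seen. Zm00001d045759 had 500, 859 and 930 counts in WT ABA and 0 in each WT MS library, which makes it at least 773-fold higher when 3 counts over the group are taken as the floor of WT MS (counting error only). It also had 0 counts in mop1-1 MS replicate 3, against 654 and 1159 in the other mop1-1 MS libraries and 606 to 1753 in mop1-1 ABA. MSTRG.2284 had 216, 243 and 177 counts in WT ABA, 0 in WT MS and likewise 0 in mop1-1 MS replicate 3, and was at least 215-fold higher in WT ABA. These features are thus present or absent in single libraries within a group of mop1-1 as well as between the WT groups. MSTRG.29572 had 386, 547 and 12 counts in WT ABA and 0 in WT MS (at least 319-fold higher), and 238 to 1103 counts in every mop1-1 library.

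Several features separated the WT ABA libraries themselves. MSTRG.12792 stood at 9.46, 11.8 and 0 CPM in WT ABA and 0, 0.0484 and 0 CPM in WT MS, but at 10.2 to 27.4 CPM in all mop1-1 libraries. Zm00001d003332, MSTRG.8301, MSTRG.8180 and Zm00001d006248 had counts in WT ABA replicates 1 and 2 and in all mop1-1 libraries, and 0 in WT ABA replicate 3 and in WT MS. Without WT ABA replicate 3 the edgeR QL test called 7 features higher in WT, 4 of them MSTRG.29572, MSTRG.12792, Zm00001d003332 and MSTRG.8301. The reverse case was Zm00001d048554, with 0 counts in WT ABA, 2.33, 0.452 and 2.14 CPM in WT MS (at least 90.1-fold lower in WT ABA), 2.53, 0.0499 and 0.307 CPM in mop1-1 ABA and 0 counts in mop1-1 MS.

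**Figure D5:**
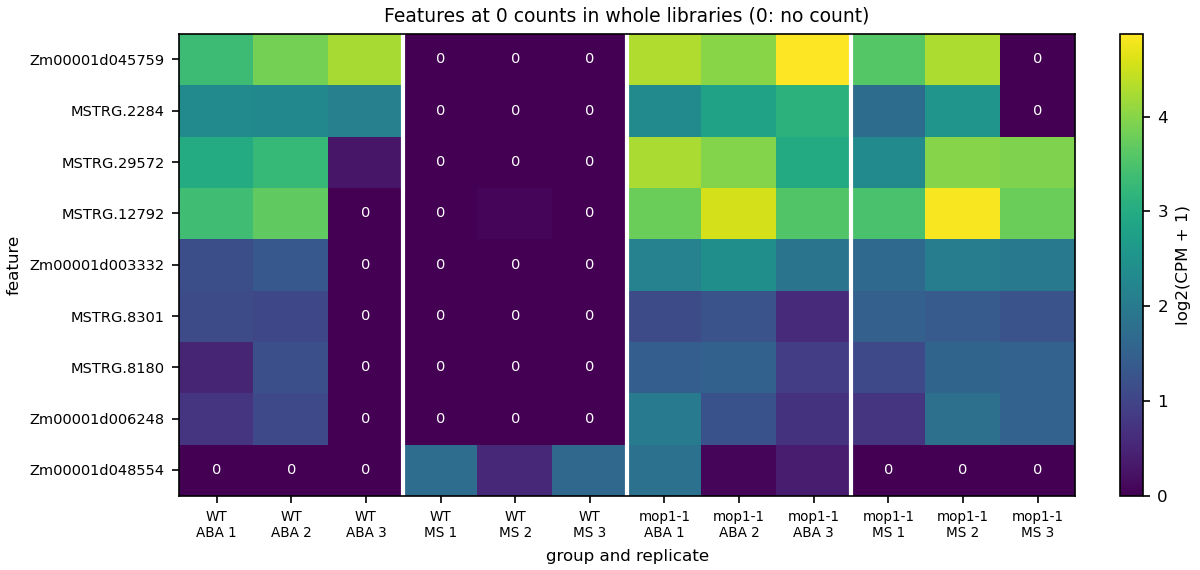
Level as log2(CPM + 1) of 9 features (rows) in the 12 libraries (columns, by group and replicate), with 0 written where a library had no count. The first 3 features are present in all 3 WT ABA libraries and absent from WT MS, the next 5 are present in WT ABA replicates 1 and 2 and in all mop1-1 libraries, and the last is absent from WT ABA and mop1-1 MS.

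The mop1-1 libraries allow the ranking found in WT to be read in other plants. Of the 200 features with the smallest p and a positive log2 fold change in WT, 117 (58.5%) were also positive in mop1-1, beside 53.1% of all features positive in WT. Of the 200 with a negative one, 118 (59.0%) were also negative in mop1-1, beside 53.0%. The median log2 fold change of these features was 0.69 in WT and 0.05 in mop1-1 for higher levels, and -0.85 in WT and -0.06 in mop1-1 for lower levels. The libraries of ABA and MS did not overlap in either genotype for 86 features higher in both (0.326%), 91 lower in both (0.345%), 59 lower in WT and higher in mop1-1 (0.223%) and 41 higher in WT and lower in mop1-1 (0.155%). Zm00001d053715, chosen after its values were seen, was one of the 59. It stood at 25.5, 30.1 and 29.0 CPM in WT ABA and 49.2, 46.4 and 82.4 CPM in WT MS, and at 89.1, 69.6 and 66.1 CPM in mop1-1 ABA and 36.7, 50.4 and 53.1 CPM in mop1-1 MS. Its log2 fold change was -1.07 in WT and 0.68 in mop1-1, and the WT call of DESeq2 (adjusted p = 0.0032) ended without WT ABA replicate 1 (adjusted p = 0.070).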

How the data were processed

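PolyA RNA of V3 seedling shoots was sequenced as read pairs of 150 bp. Per the labels and the methods of the study, the authors checked reads with fastp 0.21.0, trimmed them, and used HISAT2 2.2.1 for mapping (B73 version 4 genome) and StringTie 2.1.4 for assembly and quantification. The deposited table holds their whole-number counts per feature, not normalized, and a sum over it is the depth given here. The strand setting of the counting was not given in the sources used here, so overlapping and antisense genes cannot be told apart. The replicates are biological replicates per the study, and whether a library is 1 plant or a pool was not given in the sources used here.

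Features with at least 0.58 CPM in at least 3 libraries were normalized by TMM and fitted in edgeR 4.0.16 (R 4.3.3) with 4 group means over 12 libraries (glmQLFit, glmQLFTest), with Benjamini-Hochberg adjustment over 26401 features. A standard error is the size of the log2 fold change over the square root of F. Alternatives were RLE, other filters, the 6 WT libraries alone, the edgeR exact test, DESeq2 1.42.0, limma-voom 3.58.1, a replicate block, annotated genes alone and leaving out each library. Chosen after seeing the data were the exact test on 6 libraries and the leave-one-out fits of DESeq2 and the exact test. The QL test, the exact test and DESeq2 were checked on simulated counts with known changes, and limma-voom was not. These counts had the same spread in every library, unlike the data. No 2 WT libraries were copies (chi-square per degree of freedom 36.0 to 186).

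Names came from RefSeq symbols and aliases (Zm-B73-REFERENCE-NAM-5.0), joined through older identifiers in a supplementary workbook of the study, for 283 features, from the study's annotation for 24, and for 104 microRNA genes from the table. The members and lists were chosen with earlier results of these data known. Genes were named by this rule: up to 14 named genes per direction with the smallest p and at least 5 CPM in the higher WT group, named genes called by DESeq2 or the exact test, the 3 members of smallest p of each list, the study's network genes as a group, and up to 6 unnamed features per direction. The mop1 gene is not analysed here. Chosen outside the rule, with values known, were his1, hsp22, SnRK2.8, dhn2, OBAP2B and those marked in the text. Intervals and floors cover counting error only.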

Additional observations from a re-analysis of the deposited data

Results flagged for a closer look

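The effect of ABA differed between WT and mop1-1 by the DESeq2 test of the difference itself (WT minus mop1-1, log2) for a number of the features described above or called in WT. By name these were MRP1 (-1.80, adjusted p = 0.0093, DESeq2), gst31 (-2.01, adjusted p = 0.021, DESeq2) and gst2 (-1.23, adjusted p = 0.030, DESeq2). The annotated genes without a name were Zm00001d005002 (-2.01), Zm00001d021168 (-2.54), Zm00001d026948 (-2.0), Zm00001d042739 (-2.49) and Zm00001d053715 (-1.75), all more negative in WT, and Zm00001d006417 (1.68) and Zm00001d043525 (1.77), more positive in WT. The assembled loci were MSTRG.14443 (-1.87), MSTRG.24950 (-1.87), MSTRG.25274 (-2.19) and MSTRG.9903 (-1.58), and with the opposite sign MSTRG.23599 (2.24). Where a group had 0 counts the fold has no size, and the adjusted p of DESeq2 was 0.038 for MSTRG.18997, 0.015 for MSTRG.22600, 6.8e-04 for MSTRG.29572, 0.038 for MSTRG.8180, 0.011 for MSTRG.8301, 0.047 for Zm00001d045759 and 3.2e-08 for Zm00001d048554. WT MS replicate 3 carried MSTRG.22600 (0, 0 and 931 counts in WT MS) and most of MSTRG.18997 (0, 36 and 490 counts), which were also at 0 counts in some mop1-1 libraries and above 0 in others of the same group, and the edgeR exact test in WT called neither (adjusted p = 0.69 and 0.42). The edgeR QL test called 0 of them, with a smallest adjusted p of 0.276 over all features and 1120 features at an unadjusted p under 0.05. The difference holds the WT values by which these features were called or picked, so it is not a separate observation of them. Over all features tested DESeq2 called 27 for the difference, or 11 to 144 when a WT library was left out. Groups of 3 libraries were too small for a test of single libraries as outliers.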

How the results depend on the processing

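The count of 0 calls in WT by the edgeR QL test stayed at 0 with RLE, without a low-count filter, with filterByExpr, with limma-voom, with a replicate block (0), without a fold threshold and with annotated genes alone. It was 1 on the 6 WT libraries alone, 42 by the edgeR exact test, 50 by the exact test on 6 libraries and 68 by DESeq2, and 0 to 7 without 1 library in turn, the 7 without WT ABA replicate 3, with 2 each when WT MS replicate 1 or replicate 3 of mop1-1 MS was left out. The count by DESeq2 was 50 to 239 without each WT library in turn, with 159 without WT MS replicate 2 and 122 without WT MS replicate 3, and that by the exact test 11 to 135, with 18 without WT ABA replicate 1, 102 without WT MS replicate 2 and 87 without WT MS replicate 3. In mop1-1, where the edgeR QL test called 0 with 1011 features at an unadjusted p under 0.05, the QL test gave 0 to 2 without 1 library, the exact test called 1 (1 to 51 without a WT library, 51 without WT MS replicate 3 and 29 without WT MS replicate 1) and DESeq2 called 13 (8 to 66, with 66 and 46 without these libraries). For the interaction the QL test gave 0 to 2 without 1 library, and DESeq2 called 27, or 11 without WT ABA replicate 2 to 144 without WT MS replicate 1.

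The cause of these shifts was not tested. Same-numbered WT libraries did not deviate together (correlations -0.082 to 0.030, others -0.083 to 0.12). With so few pairs this cannot exclude a shared batch, and any pairing was not given in the sources used here. The log2 fold change of some named genes, none of them called, changed sign without a library, in the range -0.62 to 0.10 for EXPA5, -0.054 to 0.29 for MYBR32, -0.47 to 0.054 for rca1, -0.78 to 0.31 for G2-like TF 24 (0.0042 by limma-voom), -0.46 to 0.15 for PIP2-6, -0.14 to 1.29 for NAC22, -0.080 to 1.24 for AP2-EREBP TF 154, -0.18 to 1.04 for CCAAT-HAP2-TF 212, -0.68 to 0.41 for NAC TF 134 (0.10 by limma-voom), -0.027 to 0.26 for MYBR43, -0.045 to 1.83 for DREB 1A, -0.21 to 0.12 for bZIP116 and -0.11 to 0.51 for HB53. Over the other settings, features picked by the naming rule, with or without a gene name, were on the same side of the threshold in 1897 fits. Another 28 fits, by DESeq2, the exact test or without a library, called a feature that the QL test did not. The genes with a name among these were MRP1, In2-1 and gst31, at 2 fits each. List medians moved by less than the spread of the libraries in 355 of the fits and by more in 19. The share of promoters with ABA-responsive motifs was planned and not run, since no promoter sequences were at hand. Depth limits features well below 1 CPM, where few counts separate the groups. At 1.17 CPM, MSTRG.8301 had 64 counts in WT ABA replicate 1.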

Other observations

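A few other named genes were not called on all libraries and were called by DESeq2 once a WT MS library was left out. The alternative oxidase gene aox1 (Zm00001d002436), whose enzyme diverts electrons from the mitochondrial respiratory chain, stood at 11.5, 5.72 and 13.6 CPM in WT ABA and 40.9, 16.5 and 9.78 CPM in WT MS (log2 fold change -1.12, unadjusted p = 0.035, edgeR QL test). WT MS replicate 3 lay inside the WT ABA range, and without it DESeq2 called aox1 (log2 fold change -1.49, adjusted p = 0.042). The gene HK1b1 (Zm00001d033786), by its name a histidine kinase of the cytokinin receptor type, stood at 37.5, 47.8 and 53.6 CPM in WT ABA and 100, 83.6 and 24.7 CPM in WT MS, and without WT MS replicate 3 it was called as well (log2 fold change -0.99, adjusted p = 2.1e-05, DESeq2). Cel21 (Zm00001d035082), of the endoglucanases that act on cell walls, stood at 2.5, 1.83 and 2.33 CPM in WT ABA and 0.239, 1.44 and 0.231 CPM in WT MS, and was called without WT MS replicate 2 (log2 fold change 3.23, adjusted p = 0.0074, DESeq2). Over the settings run, the log2 fold change of HK1b1 ranged from -0.99 to -0.23. In each of these genes the library left out was the WT MS library nearest to or beyond the WT ABA levels. The calls therefore show the weight of that library and are not separate support. These genes were described after their values were seen, and aox1 and Cel21 were chosen outside the naming rule.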
